A study of Mus musculus with 2 samples.

Results

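The 10 genes described here encode the subunits of the transcription factor NF-κB and proteins grouped here as its inhibitors. They were read in mouse CD8 T cells given the glucocorticoid prednisolone during activation or given vehicle. The 5 subunit genes are Nfkb1, Nfkb2, Rel, Rela and Relb, and the 5 inhibitor genes are Nfkbia, Nfkbib, Nfkbie, Nfkbiz and Tnfaip3. They were chosen by name, and every non-control probe whose transcript accession belongs to one of them in RefSeq was taken. That gave 15 probes, and all 10 genes were among the 11968 genes measured on both arrays.

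The cells were naive CD8 T cells (CD44 low, CD62L high) purified from the spleens of C57BL/6 mice, whose age, sex and number per culture the labels do not state. For 2 days both cultures sat on plates coated with antibodies against TCR-β (3 µg/ml) and CD28 (1 µg/ml) plus interleukin-2 (10 ng/ml). After a change of plate both grew on in interleukin-2, and RNA was taken on day 5. The prednisolone culture received 1 µM of the drug during those 2 days and the vehicle culture did not. The labels name no drug after the move and do not say whether the cells were washed, so drug still present on day 5 cannot be told apart from a lasting difference. The series is a study of glucose metabolism and lasting suppression of the immune response. RNA of each culture went onto 1 array (1 prednisolone and 1 vehicle array), so there was no replicate, no test between conditions was possible, and every value below describes these 2 arrays only.

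NF-κB is a family of dimeric transcription factors that is kept in the cytoplasm of resting T cells by IκB proteins. Signals from the T cell receptor, CD28 and receptors of the TNF family activate IκB kinase, which marks the IκB proteins for destruction and frees the dimers to enter the nucleus. The canonical arm works mainly through dimers of p65 (from Rela) or c-Rel (from Rel) with p50 (from Nfkb1). The alternative arm works through RelB with p52, which is cut from the p100 product of Nfkb2. Several inhibitors are themselves NF-κB target genes and form feedback loops, and the glucocorticoid receptor is known to antagonise NF-κB in immune cells.

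The 10 genes did not move as a block. The Nfkb1 and Nfkbiz signals were at least 2-fold higher with prednisolone, those of Relb, Tnfaip3 and Rel were at least 2-fold lower, and the other 5 lay between. That is 5 of 10 genes at least 2-fold apart, where 12.4% of all genes measured on both arrays were (5.77% higher and 6.62% lower). Of those genes apart, 46.6% were higher, and 70.5% when the arrays were scaled on the spike-in control probes. The members were chosen with earlier results of these arrays known, and the count carries no test. The members' median difference was −0.25 on the log2 scale, against 0.00 for all 11968 genes. Values are processed signals in intensity units from the scanner software, and differences are prednisolone minus vehicle in log2 after subtracting each array's 75th percentile, which was 387 for prednisolone and 400.4 for vehicle. The ± is the software's own error of the difference. It holds no spread between cultures.

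**Figure D1:**
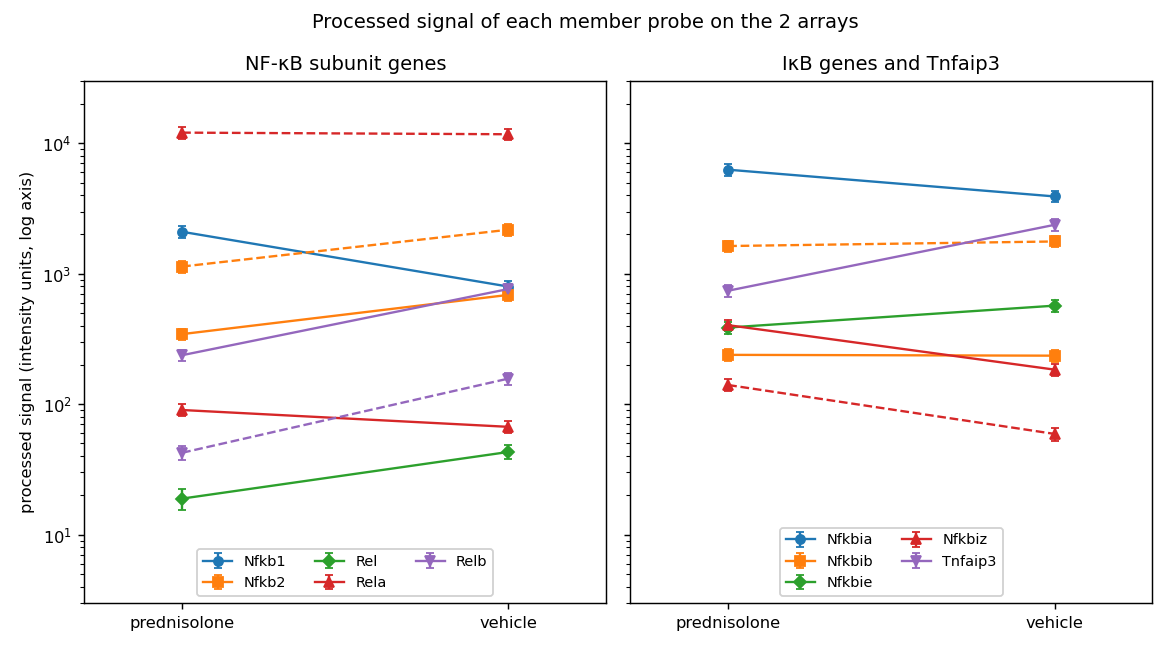
Processed signal (intensity units, log axis) of the 15 member probes on the prednisolone array (left) and the vehicle array (right), subunit genes in the left panel and inhibitor genes in the right, with the software's error as bars. A dashed line is the other probe of the same gene. The lines of Nfkb1 and Nfkbiz fall towards vehicle, those of Nfkb2, Rel, Relb and Tnfaip3 climb towards vehicle, and the bright Rela probe is nearly level at 12069 with prednisolone and 11727 with vehicle.

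Among the subunits, Nfkb1 was the higher one. Its probe, on transcript NM_008689, read 2097 with prednisolone, against 797 with vehicle, a difference of 1.45 ± 0.20 or 2.72-fold. Nfkb1 encodes p105, which is processed to p50, a subunit without an activation domain of its own. Of all measured genes 97.5% had a smaller difference than Nfkb1. Rela, which encodes the main activating subunit p65, stayed close to level. Its bright probe read 12069 with prednisolone and 11727 with vehicle, a difference of 0.09, and its dim probe read 90.3 with prednisolone and 67.1 with vehicle, a difference of 0.48. Both probes of Rela point the same way and their mean was 0.28 ± 0.15.

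The subunits of the alternative arm were both lower with prednisolone. Relb read 238 and 42.5 on its 2 probes with prednisolone, against 764 and 157 with vehicle, so each vehicle value stood above the prednisolone value of the same probe. The probes lie on different transcripts of Relb (NM_009046 and NM_001290457) and gave −1.64 and −1.84, with a mean of −1.74 ± 0.15 or 3.34-fold lower. Relb was the lowest of the 10 members. Nfkb2 read 345 and 1136 with prednisolone, against 689 and 2176 with vehicle. Its probes differed by −0.95 and −0.89, and the mean of −0.92 ± 0.14 (1.89-fold lower) lay just short of 2-fold. Among the members under 2-fold, Nfkb2 came nearest to that limit.

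Rel, the gene of c-Rel, was the faintest member. Its probe read 18.9 with prednisolone, against 43.1 with vehicle, and the unsubtracted spot stood at 51.0 over a local background of 27.0 with prednisolone and at 79.0 over 30.0 with vehicle. The difference was −1.14 ± 0.31 (2.201-fold lower), and with the background correction normexp it was −0.38. Large differences were more common among dim genes. With all measured genes cut by brightness into 4 classes of equal size, 10.2% of the dimmest class, which holds Rel, were at least 2-fold lower, and the next classes had 7.55%, 5.38% and, among the brightest, 3.38%. The shares at least 2-fold higher were 7.12%, 6.55%, 5.15% and 4.24% in the same order. Rel was at −0.90 when arrays were scaled on the spike-in probes, which turns no sign among the members but adds 0.24 to each difference.

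In a gap between subunits a constant scaling factor per array cancels, but the background correction does not. The difference of Nfkb1 exceeded that of Relb by 3.18 ± 0.25 on the log2 scale, that of Nfkb2 by 2.36 ± 0.25 and that of Rela by 1.16 ± 0.25. The difference of Rela exceeded that of Relb by 2.02 ± 0.21. On these arrays the ratio of Nfkb1 signal to Relb signal was thus 9.08-fold higher with prednisolone than with vehicle, and 5.97-fold with normexp. The gap between Rela and Relb was 1.41 with normexp. Probe signals of different genes are not on one scale, so the ratio says how unequally the genes differed and not which transcript was the more abundant.

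**Figure D2:**
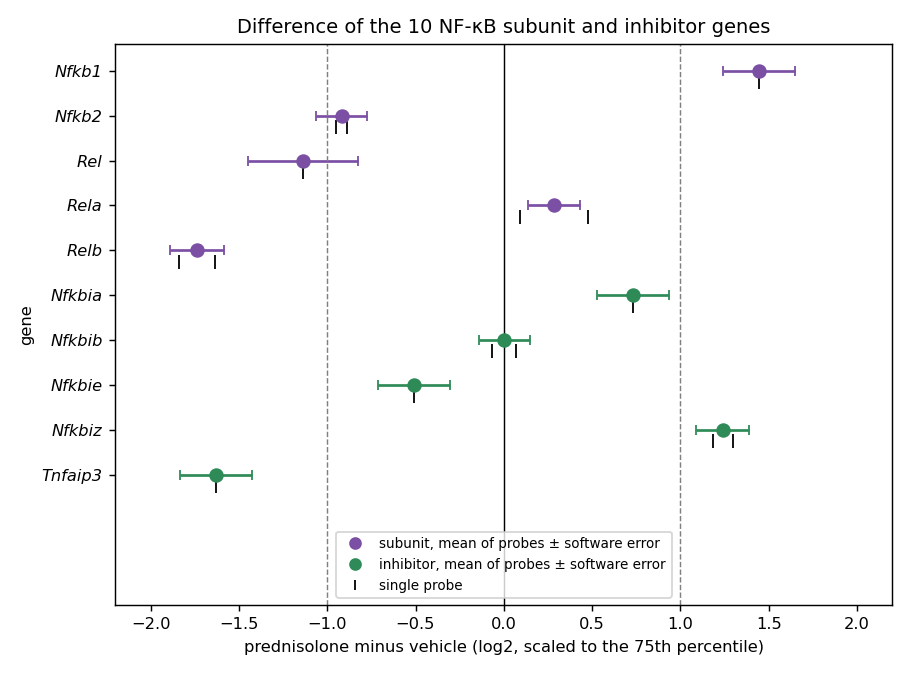
Difference between prednisolone and vehicle (log2) for the 10 genes, with the mean of a gene's probes as a filled point, the software's error as a bar and single probes as ticks. Dashed lines mark 2-fold. Nfkb1 and Nfkbiz lie right of 1, and Rel, Relb and Tnfaip3 lie left of −1.

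The inhibitors split as well. Tnfaip3 encodes A20, a ubiquitin-editing enzyme that shuts off signalling upstream of IκB kinase and is induced by NF-κB as negative feedback. Its probe read 741 with prednisolone, against 2371 with vehicle, a difference of −1.63 ± 0.20 or 3.09-fold lower. Only 2.16% of measured genes had a lower difference than Tnfaip3. Nfkbia, which encodes IκBα, the classical inhibitor that is made anew each time NF-κB is activated and is also known as a glucocorticoid-induced gene in lymphocytes, differed the other way. It read 6274 with prednisolone, against 3914 with vehicle, a difference of 0.73 ± 0.20 or 1.66-fold higher, which is short of 2-fold. The difference of Nfkbia exceeded that of Tnfaip3 by 2.36 ± 0.29.

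Nfkbiz, which encodes the nuclear protein IκBζ that binds p50 and acts on selected target promoters, was higher with prednisolone. Its probes read 404 and 140.4 with prednisolone, against 184 and 59.2 with vehicle, and both prednisolone values stood above the vehicle value of the same probe. They differed by 1.18 and 1.29, with a mean of 1.24 ± 0.15 or 2.36-fold. With normexp Nfkbiz was at 0.87, which is under 2-fold. Nfkbie, the gene of IκBε, read 387 with prednisolone, against 569 with vehicle, a difference of −0.51 ± 0.20. Nfkbib, the gene of IκBβ, read 239 and 1631 with prednisolone, against 236 and 1768 with vehicle. Its probes lie on NM_001306222 and NM_010908 and gave 0.07 and −0.07, so their mean of 0.00 ± 0.14 is nearer to 0 than that of any other member.

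All 15 probes were well above background on both arrays, none was saturated and none carried an outlier flag. Of the 5 members with 2 probes, 4 had both probes on the same side of 0 and Nfkbib did not. The gap between probes of a gene was 0.06 for Nfkb2 and reached 0.39 for Rela. Each member probe was printed once. As a measure of spot noise, probes printed 10 times had a median SD of the difference of 0.05 over 280 probes, and of 0.26 over the 8 probes with a mean signal under 100. The Rel probe and the dim probes of Rela, Relb and Nfkbiz lie near that range of signal. The differences of the 10 members ranged from −1.74 to 1.45, with an SD of 1.15. Those of all measured genes ranged from −5.05 to 7.53, with an SD of 0.73. Spot noise holds no spread between cultures, and the members were chosen with earlier results known, so neither comparison is a test.

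**Figure D3:**
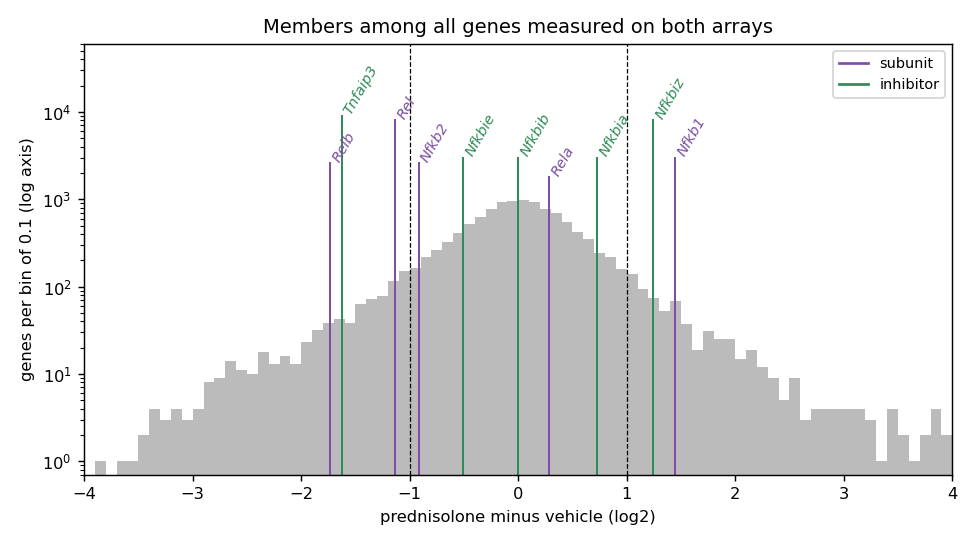
Distribution of the log2 difference, prednisolone minus vehicle, over the 11968 genes measured on both arrays (bins of 0.1, log axis), with the members as labelled lines. The axis leaves out 19 genes beyond 4 on either side. Nfkb1 and Nfkbiz stand in the right tail past 1, Relb, Tnfaip3 and Rel in the left tail past −1, and Nfkbib at the centre.

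Over the main setting and 10 alternatives, Nfkb1 ranged between 1.36 and 1.68, Relb between −1.79 and −1.22 and Tnfaip3 between −1.68 and −1.39. Nfkbiz ranged between 0.87 and 1.48, and Rel, where it had a value, between −1.19 and −0.38. Several of the alternatives cannot move a bright gene with 1 unflagged probe, such as Nfkb1 or Tnfaip3.

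**Figure D4:**
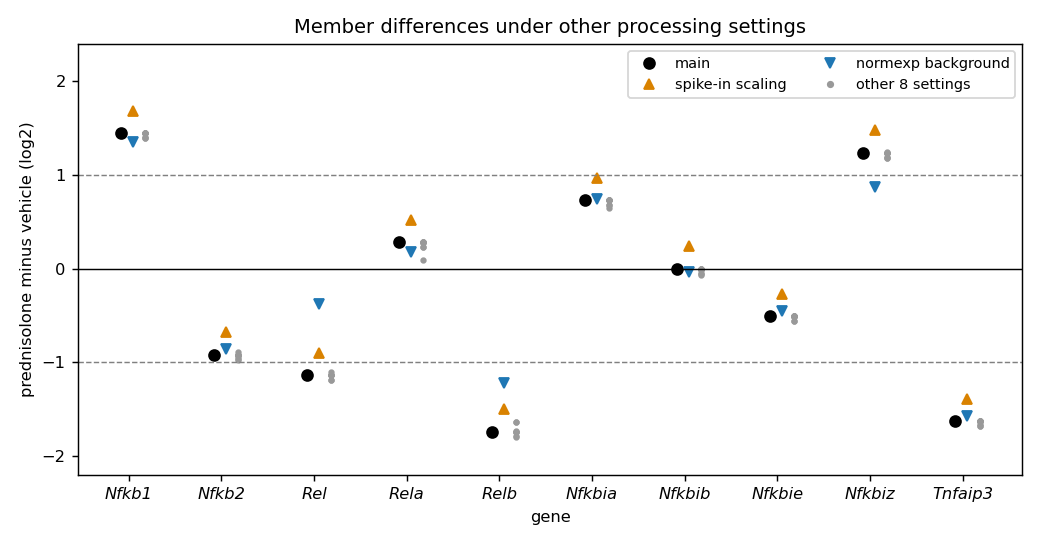
Difference between prednisolone and vehicle (log2) of each member in the main setting (black), with spike-in scaling (orange), with normexp background correction (blue) and in the other 8 settings (grey). Dashed lines mark 2-fold. Nfkb1, Relb and Tnfaip3 stay past 2-fold throughout, while Rel reaches −0.38 and Nfkbiz 0.87 with normexp.

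Several of these genes are known to be controlled by NF-κB, and the promoters of 4 members that hold the same kind of motif are shown, those of Nfkbia, which was higher, and of Tnfaip3, Rel and Nfkb2, which were lower. The 250 bases before the transcription start come from RefSeq on build GRCm38.p6 and are written 5′ to 3′ on the gene's strand. Capitals mark matches to the κB consensus, searched on both strands, where matches that overlap run together. Nfkbia lies at chr12:55492648-55492897 on the minus strand, Tnfaip3 at chr10:19015411-19015660 on the minus strand, Rel at chr11:23770970-23771219 on the minus strand and Nfkb2 at chr19:46304487-46304736 on the plus strand.
Nfkbia: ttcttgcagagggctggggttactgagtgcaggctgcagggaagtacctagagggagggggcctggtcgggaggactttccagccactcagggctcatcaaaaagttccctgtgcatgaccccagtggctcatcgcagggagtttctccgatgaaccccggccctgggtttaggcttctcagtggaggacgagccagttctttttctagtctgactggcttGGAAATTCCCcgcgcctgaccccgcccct
Tnfaip3: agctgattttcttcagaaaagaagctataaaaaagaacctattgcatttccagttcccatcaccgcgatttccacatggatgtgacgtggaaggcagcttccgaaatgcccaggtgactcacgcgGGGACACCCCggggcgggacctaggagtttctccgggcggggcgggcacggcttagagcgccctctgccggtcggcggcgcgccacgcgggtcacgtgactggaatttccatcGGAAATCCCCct
Rel: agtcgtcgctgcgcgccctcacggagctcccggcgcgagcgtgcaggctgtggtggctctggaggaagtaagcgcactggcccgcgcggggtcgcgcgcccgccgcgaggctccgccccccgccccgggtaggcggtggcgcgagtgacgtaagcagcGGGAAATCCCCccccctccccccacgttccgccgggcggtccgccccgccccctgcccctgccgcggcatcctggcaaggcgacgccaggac
Nfkb2: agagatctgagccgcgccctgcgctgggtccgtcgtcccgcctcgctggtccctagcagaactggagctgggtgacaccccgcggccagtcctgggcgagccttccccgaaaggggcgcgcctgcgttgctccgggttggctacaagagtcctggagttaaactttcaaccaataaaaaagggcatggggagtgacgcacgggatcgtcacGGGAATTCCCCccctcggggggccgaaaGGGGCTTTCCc

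Promoter windows were at hand for 7 of the 10 members (10 windows, since Nfkb2 and Tnfaip3 have several starts) and not for Nfkb1, Relb and Nfkbiz. A match to the κB consensus was found in 7 of the 10 windows, while 7.25% of all 32851 promoter windows of the same length hold one. Counted by gene, 5 of the 7 members had a match in some window, namely Nfkbia, Tnfaip3, Rel, Nfkb2 and Nfkbie, against 10.2% of the 9600 measured genes with windows. The other Tnfaip3 window, at chr10:19011964-19012213, held none. No match was found in the windows of Rela and Nfkbib. The match in Nfkbia begins 29 bases before the start and the nearer one in Tnfaip3 begins 12 bases before it, in the same orientation. Of the 5 members with a match, 4 were below 0, namely Tnfaip3 (−1.63), Rel (−1.14), Nfkb2 (−0.92) and Nfkbie (−0.51), and Nfkbia was above 0 (0.73). Of all 11968 genes measured on both arrays, 5971 were below 0. A link between a match and the direction of a member was not tested. These are matches of letters within 250 bases, and binding was not measured.

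The rest of the pathway was read from 8 lists of genes, which together name 121 genes outside the 10 members. Values were at hand for 99, of which 10 lay at or past 2-fold on the prednisolone side and 14 on the vehicle side. That is 10.1% higher and 14.1% lower, against 6.86% and 7.83% of all 13133 genes with a value. The lists were chosen with earlier results of these arrays known, and the shares carry no test. These shares hold for the main setting only, and spike-in scaling raised the median gene to 0.24. In these counts a gene that was well above background on 1 array only has a bound in place of a value, written "at least N-fold" and set against the lowest signal that was well above background on the other array or, where that was higher, the probe's own signal there.

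Closest to the members, the list of other IκB-like and nuclear regulators had 2 of 9 genes past 2-fold, both higher, and a median of −0.03. Among all genes measured on both arrays, 5.77% were at least 2-fold higher and 6.62% lower. Nfkbid, which encodes the nuclear protein IκBNS, read 294 and 1835 on its 2 probes with prednisolone, against 129 and 849 with vehicle, a difference of 1.20 ± 0.15, and 0.99 with normexp. Both prednisolone values were the higher ones, as for its nuclear relative Nfkbiz. Nkrf, the gene of an NF-κB repressing factor, read 274 with prednisolone, against 95.4 with vehicle (1.57 ± 0.21). Bcl3, which encodes another nuclear IκB protein, differed by −0.60 ± 0.20.

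A list of 15 genes holds the IκB kinase complex, related kinases, their adaptors and the ubiquitin ligase subunits that act on phosphorylated IκB. In it 0 of 15 genes were at least 2-fold apart, where 12.4% of all genes measured on both arrays were, and the median was −0.06. The catalytic subunit gene Chuk (IKKα) was at 0.72 ± 0.16, about the size of the Nfkbia difference, and at 0.96 with spike-in scaling. Ikbkb (IKKβ) was at 0.38 ± 0.20, and Ikbkg, the scaffold NEMO, was at −0.25 ± 0.13. The 3 Ikbkg probes differed in sign, from −0.53 to 0.25. Ikbkg was at −0.09 with normexp and at −0.01 with spike-in scaling. Map3k14, the kinase that drives the alternative arm, was at −0.08 ± 0.15, from probes at −0.30 and 0.14. Farthest from 0 in that list in the main setting was Btrc, at −0.73 ± 0.20. It encodes a ubiquitin ligase subunit that recognises phosphorylated IκB. Its probes were dim, at 15.6 and 43.5 with prednisolone, against 35.1 and 56.8 with vehicle. They gave −1.12 and −0.33. Btrc was at −0.22 with normexp and at −0.49 with spike-in scaling.

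Upstream of the kinase, Malt1 encodes a paracaspase that relays signals from the T cell receptor. Malt1 read 164 with prednisolone, against 370.3 with vehicle (−1.12 ± 0.21, against −0.89 with spike-in scaling and −0.94 with normexp). A brighter Malt1 probe, with an outlier flag on the prednisolone array, brings the gene to −0.91 when kept. Among TRAF and IAP adaptors 1 of 8 was lower and 0 higher, where 6.62% and 5.77% of all genes measured on both arrays were. The median was −0.15. With spike-in scaling 1 was lower and 1 higher, and the median was 0.09. The lower gene is Traf1, a known NF-κB target, which read 3064 with prednisolone, against 10316 with vehicle (−1.70 ± 0.20).

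Partners of A20 and other ubiquitin editors had a median of −0.22. Of 13 genes 1 was lower and 0 higher, where 7.83% and 6.86% of all 13133 genes with a value were. The lower one, Tnip1, rests on a bound of at least 2.54-fold from a dim probe, and with its bright probe, which carries outlier flags, it was at −0.52. TNF family ligands had 3 of 9 lower and 0 higher, against those same shares of 7.83% and 6.86%, with a median of −0.33. With spike-in scaling 2 of the measured ligands were lower and 2 higher, and their median was −0.09. With normexp 1 was lower and 0 higher. Tnfsf11, the gene of RANKL, was at −1.89 ± 0.33, and at −0.57 with normexp. Ltb, which encodes the lymphotoxin β chain that acts through the alternative arm, read 15886 with prednisolone, against 41718 with vehicle (−1.34 ± 0.20), and Tnfsf14 was at −1.02 ± 0.20, and at −0.78 with spike-in scaling and −0.89 with normexp. Tnf itself was at 0.84 ± 0.14, at 1.08 with spike-in scaling and at 0.69 with normexp.

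Receptors upstream of NF-κB had 3 of 17 higher and 1 lower, with a median of 0.11. Of all genes measured on both arrays, 5.77% were at least 2-fold higher and 6.62% lower. Tnfrsf9, the gene of 4-1BB and a known NF-κB target, read 932 and 3674 on its 2 probes with prednisolone, against 5624 and 20645 with vehicle (−2.49 ± 0.14). Tnfrsf25 read 1421 with prednisolone, against 310.2 with vehicle (2.24 ± 0.20). Tnfrsf13c, the gene of the BAFF receptor, was at 1.37 ± 0.21 and Tnfrsf8, the gene of CD30, at 1.23 ± 0.32, which normexp put at 0.34.

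Genes known as NF-κB targets went both ways, as the members did. Among 24 such genes, 5 lay at least 2-fold up with prednisolone and 8 down, where 6.86% and 7.83% of all 13133 genes with a value did. This list too was chosen with earlier results known, and the count carries no test. The median over the 22 measured on both arrays was −0.37, with 5 higher and 6 lower. The balance depended on the scaling. With spike-in scaling 6 of the measured targets were higher and 3 lower, and their median was −0.14. The chemokine gene Ccl5 read 17800.4 with prednisolone, against 3709 with vehicle (2.31 ± 0.20), and Irf4, a transcription factor gene induced through c-Rel, read 4784 with prednisolone, against 1150.2 with vehicle (2.11 ± 0.20, and 1.23 with its flagged probe kept). Ccnd2 (1.40 ± 0.14), Cd69 (1.09 ± 0.20) and Il2ra (1.03 ± 0.20) were the other higher ones, and Il2ra was at 0.98 without scaling. Ifng was lowest at −2.82 ± 0.21, and Irf8 was at −2.07 ± 0.20. Cd83 was at least 3.74-fold lower, where normexp gave −0.63, and the signal of Traf1 is given above. Many of these genes also answer to other factors, and the list does not measure NF-κB activity.

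**Figure D5:**
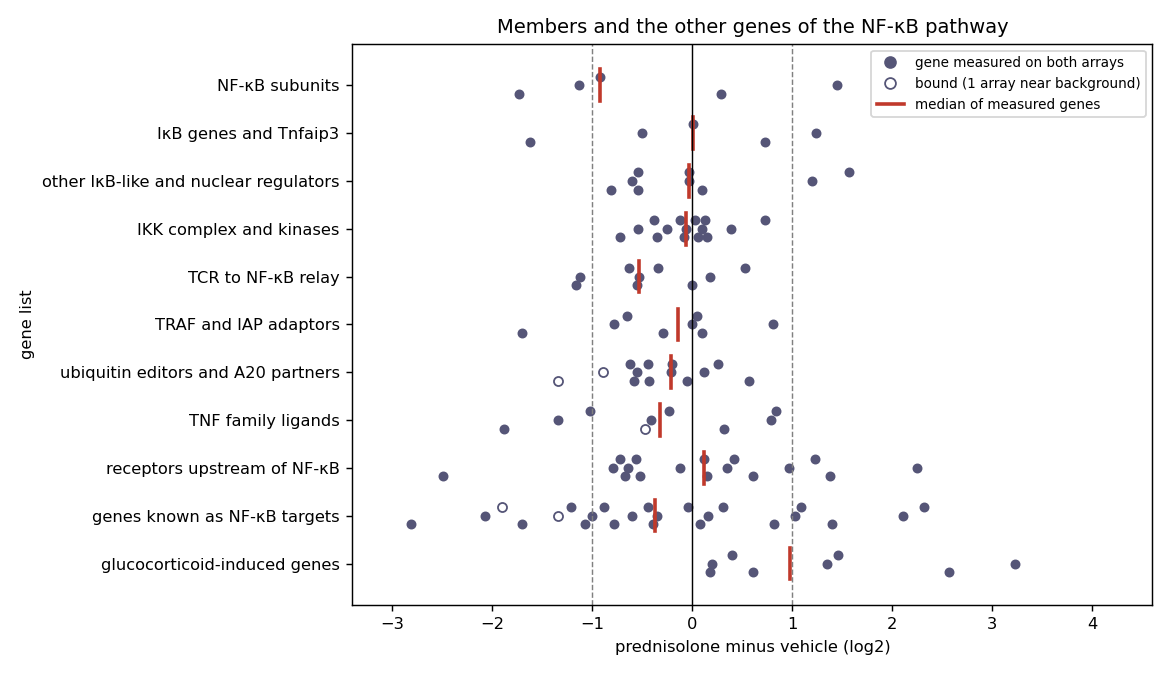
Difference between prednisolone and vehicle (log2) for the genes of each list, with filled points for genes measured on both arrays, open points for bounds and a red bar for the median of the measured genes. Dashed lines mark 2-fold. The genes of the IκB kinase list all lie within 2-fold, while the subunits, inhibitors, receptors and known targets have genes past both lines.

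The labels of the arrays were checked against genes known to mark the treatment and the cells. The glucocorticoid-induced genes Fkbp5 (2.57 ± 0.14), Klf9 (3.23 ± 0.20) and Tsc22d3 (1.45 ± 0.14) were higher with prednisolone, and none of the 8 measured genes of that list was below 0. Only 4 of the 8 were at least 2-fold higher, where 5.77% of all genes measured on both arrays were. The median of the 8 was 0.97 and the smallest difference was 0.18. Zfp36 and Sgk1, also in the list, were outlier-flagged at every spot on at least 1 array, and with those spots kept Zfp36 was at −0.36 and Sgk1 at 3.60. The receptor gene Nr3c1 was at 0.60 ± 0.20. Cd8a read 2105 and 6045 with prednisolone, against 2290.1 and 6030 with vehicle, and Cd3e differed by −0.42 ± 0.20. Cd3d, at −0.61 ± 0.14, was farthest from 0 among the 6 CD8 T cell markers measured, of which 5 were below 0, with a median of −0.38. Cd8b1 and Cd3g were outlier-flagged on the prednisolone array, and with those spots kept Cd8b1 was at −0.17 and Cd3g at −0.87.

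Markers of other cells included dim and bright ones. Cd4 was at 0.08 ± 0.20 and Foxp3 at −0.75 ± 0.22. On both arrays the B cell markers Cd79a and Ms4a1 were not well above background, and Pax5 was at −0.09 ± 0.44. The summed signal of the unflagged spots of the B cell list was 21.4 with prednisolone and 24.0 with vehicle. That sum leaves out Cd79b, whose probe read 1623 with prednisolone and 1063 with vehicle, where it carries an outlier flag, a difference of 0.66 with the spot kept. The NK cell list summed to 134 with prednisolone and 66.1 with vehicle, and its gene Klra8 was at least 4.53-fold higher, where normexp gave 0.81. Tyrobp was at least 1.38-fold lower and Klrb1c was at 0.07 ± 0.32. Myeloid and dendritic cells are rich in Relb. Of their 7 markers 5 had a value, with a median of 0.02 over the 3 measured on both arrays. Of these 5, 0 were at least 2-fold higher and 2 lower, where 6.86% and 7.83% of all 13133 genes with a value were. The lower ones were Cd68 (−2.22 ± 0.20) and Cd74 (at least 4.63-fold lower, where normexp gave −0.75). Lyz2 and Itgax were at background on both arrays. Itgam was at 0.02 ± 0.22, Csf1r at 0.23 ± 0.21, and Cd14 at least 1.11-fold higher. The summed signal of the unflagged spots of the 7 was 3890 with prednisolone and 4461 with vehicle, and most of it came from an Itgam probe at 3459 with prednisolone and 3166 with vehicle. Their part in the differences of Relb and Tnfaip3 was not tested. In a bulk culture, fewer cells of a type and less RNA per cell cannot be told apart.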

How the data were processed

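Per the file headers, the deposited scanner files hold the linear intensity of each spot on a 1-colour (Cy3) Agilent mouse array, read with Agilent Feature Extraction 12.0.3.1, which subtracted background and detrended it within the array. The build named there is mm9, so no gene coordinates from the arrays are given. In a second deposited table, each intensity equals the processed signal multiplied by a fixed factor (0.858 for prednisolone, 0.792 for vehicle; column medians 16.4 and 16.2). That table is linear and not centred, and the sources used here do not state where the factors come from. Both arrays lay on 1 slide.

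Left out were control spots and outlier-flagged spots (8.92% of spots for prednisolone, 7.20% for vehicle), spots of a probe were averaged in log2, and each array's 75th percentile was subtracted. On both arrays 53.5% of spots were well above background. RefSeq (GRCm38.p6) named 33767 of the probes and left 22838 unnamed. Probes well above background on both arrays were averaged to give the value of a gene. With 1 array per condition no test was run, and the number of arrays limits the precision. A difference of at least 2-fold was counted. The errors come from the processed signal error of the software.

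The members and all gene lists were chosen with earlier results of these data known. From each list, up to 3 genes at each end among those at least 2-fold apart were named (5 for known targets), and otherwise the member farthest from 0, plus Tsc22d3, Fkbp5, Nr3c1, Cd8a, Cd8b1, Cd3e and Cd4. Chuk, Ikbkb, Ikbkg, Map3k14, Bcl3, Tnf, Zfp36, Sgk1, Cd3g, Cd79b, Tyrobp, Klrb1c, Itgam, Csf1r and Cd14 were named after their values were seen. For the alternative background correction, limma 3.58.1 was run on the median spot signal, as the files have no mean signal, with an offset of 50. Other steps used Python 3.11.15. The procedure was tested on simulated data. Some listed genes are not reported here.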

Additional observations from a re-analysis of the deposited data

How the results depend on the processing

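The differences of all 10 members were computed under 10 other settings. No member that was at least 2-fold apart changed direction. Nfkb1, Relb and Tnfaip3 were at least 2-fold apart under every setting run. Nfkb1 and Tnfaip3 have 1 unflagged probe each. The settings on flagged spots, dim probes and the brightest probe therefore left them at 1.45 and −1.63. The deposited table is the processed signal times a fixed factor per array, which the scaling removes, so it could move no member. Leaving out the scaling, or using another 75th percentile, only adds a constant to every difference. Rel was under 2-fold with normexp and with spike-in scaling and had no value under the stricter filter on dim probes. Nfkbiz was under 2-fold with normexp, which left 1 higher member.
Scaling on the 8 spike-in probes raised the median gene to 0.24. It gave Nfkb1 1.68, Nfkb2 −0.68, Rela 0.52, Relb −1.4995, Nfkbia 0.97, Nfkbib 0.24, Nfkbie −0.27, Nfkbiz 1.48 and Tnfaip3 −1.39. It made 1151 genes at least 2-fold higher and 482 lower, so that 70.5% of genes apart were higher, against 46.6% in the main setting. Normexp gave Rel −0.38, Relb −1.22 and Nfkbiz 0.87, with 385 genes higher and 410 lower. Without a filter on dim probes 1460 were higher and 1701 lower, against 690 and 792. The brightest probe put Rela at 0.091. The cause of these shifts was not tested. The deposited value table gave the same differences as the scanner files after scaling. Of 887 values of other genes and lists, 109 moved by more than their error or by over 1.5 times, 60 of them under spike-in scaling. Of 29 other genes or bounds at least 2-fold apart, 13 were under 2-fold in at least 1 setting.
No paired analysis was possible because each condition has 1 array, and for the same reason no array could be left out. The signal over background limits Rel most.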

Other observations

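Some genes of the pathway had only spots with an outlier flag on at least 1 array and are left out above. With such spots kept, the cytokine gene Lta, which encodes lymphotoxin α, was at −1.41 (signal 2083 with prednisolone, against 5742 with vehicle). Gadd45b, a known NF-κB target, was at −1.44 (339 with prednisolone, against 953 with vehicle), and Csf2, the gene of GM-CSF, was at −2.62 (19.3 with prednisolone, against 122 with vehicle). Zc3h12a, which encodes the RNase Regnase-1, was at 0.45, Irf1 at −0.70 and Ripk1 at 0.59. These genes were named after their values were seen.

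Across the genome, 979 measured genes had a match to the κB consensus in a promoter window. Of these, 6.03% were at least 2-fold higher with prednisolone and 8.38% lower, with a median difference of −0.05. The 8621 measured genes with promoter windows and no such match had 5.71% higher, 6.37% lower and a median of 0.01. No test was run on this difference.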
